A study of Macaca mulatta with 8 samples.

Results

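Adeno-associated virus (AAV) vectors reach the nucleus with the help of host proteins, and the genes examined here encode 6 of them: KIAA0319L, GPR108, TM9SF2, ATP2C1, RPSA and FGFR1. They were looked up by symbol among the 26533 features of the count tables, where 5 of the 6 were found by symbol and GPR108 was found through its identifier in the gene table. All 6 are features of every library.

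KIAA0319L encodes AAVR, a membrane protein that cycles between the cell surface and the trans-Golgi network and that most AAV serotypes need for entry. GPR108, TM9SF2 and ATP2C1 encode Golgi membrane proteins: GPR108 is needed by many serotypes after uptake, TM9SF2 takes part in Golgi trafficking and glycosylation, and ATP2C1 is the Golgi pump for calcium and manganese ions on which the maturation of glycoproteins depends. RPSA is a protein of the small ribosomal subunit that also serves as the laminin receptor and was proposed as a receptor for AAV8 among others, and FGFR1 is a receptor tyrosine kinase proposed as a coreceptor for AAV2.

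The 8 libraries used here, 1 per area and eye, are from 2 wild-type male macaques. Retina was profiled by droplet single-cell RNA sequencing of transcript 5′ ends. NHP1, aged 5 years, had received AAV2-CAG-hRPE65 in both eyes, and its 2 libraries are labelled uninjected. The paper also sequenced punches from treated NHP1 retina, and no library used here carries that label. NHP2, aged 6 years, had been injected with AAV8-GRK1-hRPGR and with AAV8-GRK1-mScarlet at separate places of each eye, and each of its eyes gave 3 libraries: 1 per bleb, the patch of retina that a subretinal injection lifts, and 1 of uninjected retina. By the study's methods every eye also received triamcinolone and the left eyes adalimumab, so no library is from an untreated eye. The paper harvested the retinas about 3 months after injection. GRK1 is a photoreceptor promoter. A transgene UMI (a counted RNA molecule) comes from transcription of the vector genome, does not measure entry alone, and can reach a droplet as free RNA from other cells. The features coRPGR, mScarlet and huRPE65 count the transgenes of the 3 vectors. All comparisons between areas rest on 2 eyes of 1 animal, and the spread between libraries does not measure variation between animals.

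Libraries held 90634306 to 146519011 UMIs, and 83192 cells were used, with median depths of 4606 to 6036 UMIs per library among the cells that passed the filters. Cells were grouped into 11 classes from marker genes, without the 6 genes among the clustering genes. Clusters that met no name held 23.2 to 48.8% of the cells of a library, and most of them carried rod markers but low mitochondrial counts (21.3 to 36.7% of a library). Between 1040 and 1468 cell barcodes of a library also occurred as cells in another one. Rod-like cells lay in 1 pair of clusters in the uninjected areas of NHP2 (95.5% right, 89.6% left) and in 4 other clusters in the mScarlet blebs (99.0% right, 99.6% left) and the right hRPGR bleb (96.5%), while the left hRPGR bleb was split (72.0% and 24.4%). Müller glia-like cells of both mScarlet blebs, the right hRPGR bleb and the right uninjected area lay mostly in 1 pair of clusters (92.4 to 97.9%), and those of the left uninjected area mostly in another (87.3%). The right library labelled uninjected of NHP2 had a coRPGR UMI in 13.6% of its rod-like cells, beside 5.32% of its bipolar-like cells. The left NHP1 library labelled uninjected had a huRPE65 UMI in 33.1% of its rod-like and 20.6% of its bipolar-like cells. The paper reports hRPE65 as nearly absent outside the NHP1 blebs, and whether the label fits the area sampled was not tested. In the right mScarlet bleb coRPGR was found in 3.12% of rod-like, 7.41% of cone-like and 0.43% of bipolar-like cells.

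Of the 6 genes, 4 have no second locus in the Mmul_10 assembly to which at least 80% of a transcript aligned: KIAA0319L (chr1:189065278-189193572, plus strand), TM9SF2 (chr17:81213530-81287600, plus strand), ATP2C1 (chr2:33162452-33320557, plus strand) and FGFR1 (chr8:38876231-38935970, minus strand). GPR108 (chr19:6648649-6656550, minus strand) has 1 such locus, at 95.1% identity, and shares 13 of its 1991 windows of 90 bases (0.653%) with it exactly. RPSA (chr2:94850937-94856870, plus strand) has 12, up to 99.3% identical, and 849 of its 948 windows of 90 bases (89.6%) occur unchanged in at least 1 of them. The first 60 coding bases of RPSA are printed beside copies of it because the libraries read 5′ ends, where a read from RPSA and a read from a copy would look alike. Capitals mark bases that differ from RPSA, positions are counted from 1 at the A of the start codon, and all sequences are RefSeq Mmul_10.
RPSA, chr2:94851845-94851904, plus strand, coding exon: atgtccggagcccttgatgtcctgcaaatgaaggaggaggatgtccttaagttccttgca
copy in LOC697065, chr1:160564947-160565006, minus strand, coding exon: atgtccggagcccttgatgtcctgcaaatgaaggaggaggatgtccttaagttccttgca
copy in LOC106996346, chr4:140012898-140012957, minus strand, coding exon: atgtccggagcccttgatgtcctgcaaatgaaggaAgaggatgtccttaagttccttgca
copy in LOC698768, chrX:139838600-139838659, plus strand, transcribed pseudogene: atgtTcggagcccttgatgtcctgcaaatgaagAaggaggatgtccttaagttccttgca
The copy on chromosome 4 carries G36A and the copy on chromosome X carries C5T and G34A. Over these 60 bases 6 of the 12 copies are identical to RPSA, and the most distant one differs at 4 positions. A second feature that the gene table names RPSA held 0 to 7 UMIs per library, against 21482 to 51525 for RPSA. RPSA values below may therefore include or lack reads of copies, and how the counting assigned them was not tested.

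KIAA0319L, the receptor, was measured in all 11 classes. Levels are UMIs summed over the cells of a class in a library, as counts scaled to a common library size with TMM factors (CPM). In rod-like cells, the target of both NHP2 vectors, its lowest, median and highest library stood at 56.8, 61.7 and 66.1 CPM (62.1 ± 3.1, SD, n = 8). Horizontal cell-like cells had the highest mean (94.4 ± 15.3 CPM, n = 8), followed by cone-like (73.6 ± 7.9), bipolar-like (72.6 ± 6.8) and amacrine-like cells (69.6 ± 4.1). Ganglion-like cells (52.7 ± 6.2, n = 6), RPE-like cells (52.4 ± 16.2, n = 3), Müller glia-like cells (45.4 ± 5.3), myeloid-like cells (33.9 ± 12.5), T or NK-like cells (30.8 ± 17.2, n = 7) and B-like cells (21.7 ± 7.3, n = 2, 13 UMIs) came lower. Every pair of neighbours in this order overlapped in range. Without TMM factors amacrine-like cells (87.6 CPM) stood above bipolar-like (82.8) and cone-like cells (64.7), so the order of these classes depends on the scaling. RPE, the retinal pigment epithelium, was left behind when the retina was taken for dissociation and is represented by 26 to 74 cells in each of 3 libraries. Free RNA, taken from barcodes of 100 to 1000 UMIs, held KIAA0319L at 18.5 to 47.3 CPM, a range that reaches the Müller glia-like, myeloid-like and lymphoid-like levels but lies below every rod-like library. Free RNA values here and below carry no TMM factors, and their ranges run over all libraries, so they are not the background of a single library.

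**Figure D1:**
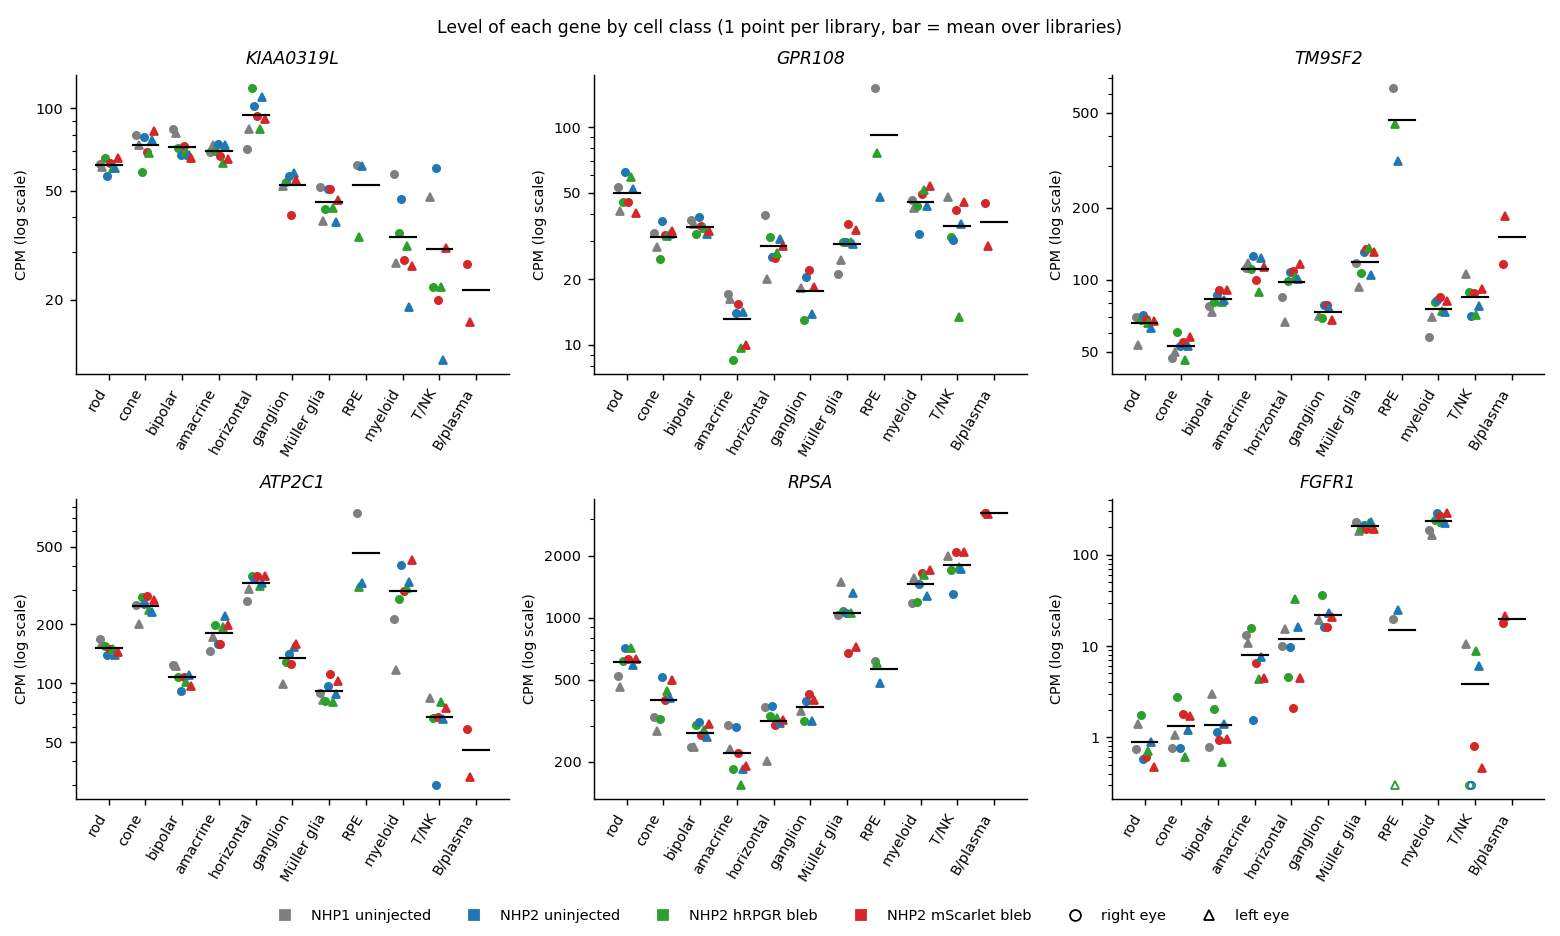
CPM (log axis) of each of the 6 genes by cell class; each point is 1 library, coloured by area and shaped by eye, and the bar is the mean over libraries. FGFR1 stands at 165 to 289 CPM in myeloid-like and 182 to 230 in Müller glia-like libraries and at 0.47 to 1.73 in rod-like ones; open points are libraries with 0 UMIs, drawn at the axis floor.

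The Golgi members differed in where they were high. GPR108 had its highest mean in RPE-like cells (91.5 ± 53.4 CPM, n = 3, 94 UMIs), then rod-like cells (40.3, 48.7 and 62.1 as lowest, median and highest of 8 libraries) and myeloid-like cells (45.2 ± 6.6). It was lowest in amacrine-like cells at 13.1 ± 3.3, and no amacrine-like library (highest 17.1) reached a rod-like one. TM9SF2 stood at 635 CPM in the RPE-like cells of NHP1, right eye, 448 in the left hRPGR bleb and 315 in the left uninjected area of NHP2, all above every library of every other class, the next being 185 CPM in B-like cells. TM9SF2 stood at 119 ± 16.1 CPM in Müller glia-like and 52.6 ± 5.0 in cone-like cells. Without TMM factors Müller glia-like cells stood at 108.3 ± 15.6 and amacrine-like cells above them at 140.0 ± 17.6, so no order between these classes is given. Free RNA held GPR108 at 9.44 to 37.2 CPM, whose upper end lies above every amacrine-like, ganglion-like, Müller glia-like and cone-like library. The 37.2 CPM was in the left uninjected area of NHP2. The right and left mScarlet blebs held 9.44 and 13.7 CPM, below every Müller glia-like library (lowest 21.2). Free RNA held TM9SF2 at 15.4 to 64.0 CPM, a range that covers every cone-like library.

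ATP2C1 was also high in RPE-like cells (462 ± 246 CPM, n = 3), with 746 in NHP1 and 313 and 327 in NHP2. Without TMM factors RPE-like cells stood at 313 ± 77.5 CPM and horizontal cell-like cells at 358 ± 32.7, so the order of these classes turned with the scaling. Horizontal cell-like (326 ± 31.6), myeloid-like (296 ± 99.8) and cone-like cells (250 ± 25.6) followed, rod-like cells stood at 151 ± 10.5, and Müller glia-like (91.5 ± 11.3) and T or NK-like cells (67.0 ± 17.7) were lowest among classes with at least 5 libraries. After thinning to 3000 UMIs, an ATP2C1 UMI was found in 56.3 to 73.5% of horizontal cell-like cells and in 28.2 to 36.8% of rod-like cells per library. Free RNA held ATP2C1 at 42.5 to 99.7 CPM, overlapping the Müller glia-like and T or NK-like levels.

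RPSA followed the immune and glial classes. B-like cells had 3170 and 3223 CPM in the 2 mScarlet blebs, T or NK-like cells 1807 ± 279 (n = 7), myeloid-like cells 1452 ± 214 and Müller glia-like cells 1050 ± 269. Rod-like cells stood at 610 ± 87.4 and amacrine-like cells, the lowest, at 221 ± 53.2. Free RNA held RPSA at 162 to 657 CPM, a range that overlaps those of the neuronal classes. The highest mean among classes of at least 5 libraries was 8.18 times the lowest.

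FGFR1 had the widest span of the 6 genes, with a ratio of 265 between the highest and lowest mean of those classes. Its lowest, median and highest libraries were 165, 233 and 289 CPM in myeloid-like cells and 182, 204 and 230 CPM in Müller glia-like cells. In rod-like cells they were 0.47, 0.72 and 1.73 CPM, from 167 UMIs over 31324 cells, and in cone-like cells 0.61, 1.13 and 2.79. Free RNA held 1.98 to 12.2 CPM of FGFR1, so every rod-like library lay below the free RNA range and the level in photoreceptors is read as background. The ratio thus sets a level against background and does not measure a level in rod-like cells. After thinning, an FGFR1 UMI was found in 35.5 to 43.9% of Müller glia-like and 27.1 to 38.1% of myeloid-like cells, against 0.15 to 0.67% of rod-like cells, with median depths of 3980 to 5665, 2684 to 7470 and 5017 to 7345.5 UMIs per library. Myeloid-like cells held the 9 Müller glia markers at 758 to 1681 CPM in sum, against 27796 to 39966 CPM in Müller glia-like cells. They held the 10 rod markers at 4190 to 15406 CPM in sum, against 36009 to 53386 CPM in rod-like cells. The FGFR1 ranges of myeloid-like and Müller glia-like cells overlapped. The part of RNA from other cells in the myeloid-like levels was not tested.

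Class differences were tested against rod-like cells with library as a block. The classes differ in most genes, so the share of all genes called stands beside each count. In cone-like cells 5 of 6 members were called (all genes 56.0%): ATP2C1 was higher (log2 fold change 0.71 ± 0.13 SE, edgeR adjusted p = 5.2e-06) and so was KIAA0319L (0.24 ± 0.09, adjusted p = 0.0249), while GPR108 (-0.67 ± 0.11), RPSA (-0.61 ± 0.14) and TM9SF2 (-0.32 ± 0.09) were lower. In bipolar-like cells 5 of 6 were called (all genes 66.7%), with TM9SF2 (0.33 ± 0.08) and KIAA0319L (0.22 ± 0.09, adjusted p = 0.0312) higher and RPSA (-1.14 ± 0.14), GPR108 (-0.51 ± 0.11) and ATP2C1 (-0.49 ± 0.13) lower. Both KIAA0319L calls were lost without the filter on low counts (edgeR adjusted p = 0.269 in cone-like and 0.252 in bipolar-like cells). FGFR1 was not called in either class (0.60 ± 0.38 and 0.58 ± 0.35).

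In Müller glia-like cells all 6 members were called (all genes 74.1%). FGFR1 was higher by 7.87 ± 0.25 on the log2 scale (edgeR adjusted p = 2.6e-38), TM9SF2 by 0.85 ± 0.08 and RPSA by 0.80 ± 0.14, and the values of GPR108 (-0.76 ± 0.11), ATP2C1 (-0.73 ± 0.13) and KIAA0319L (-0.46 ± 0.09) were lower. The FGFR1 differences here and in myeloid-like cells are against a background level in rod-like cells. The KIAA0319L call was lost with cells of at least 3000 UMIs (-0.18, edgeR adjusted p = 0.0799), where the median of all genes was 0.22, so that relative to the median it was -0.40 against -0.47 with all cells. In myeloid-like cells 5 of 6 were called (all genes 70.0%), with FGFR1 (8.09 ± 0.25), RPSA (1.26 ± 0.14), ATP2C1 (0.96 ± 0.14) and TM9SF2 (0.23 ± 0.09) higher and KIAA0319L lower (-0.99 ± 0.11), and GPR108 did not pass the test (-0.08 ± 0.12, adjusted p = 0.651). Without the filter on low counts, where the median of all genes was -0.23, the TM9SF2 call was lost (-0.00042, edgeR adjusted p = 1.0) and GPR108 was called lower (-0.31, adjusted p = 0.0382), and the TM9SF2 call was also lost without any single one of 7 of the 8 libraries (0.16 to 0.22). Another scaling, relative log expression, moved the median of all genes by 0.137 to 0.237 in these comparisons. It turned the split of all called genes from 4226 higher and 4904 lower to 5101 and 3859 in cone-like cells, and from 5448 and 5441 to 6972 and 3884 in bipolar-like cells. Relative to that median every member kept its direction. The TM9SF2 call in cone-like cells (adjusted p = 0.123) and the ATP2C1 call in bipolar-like cells (adjusted p = 0.105) were then lost, and FGFR1 was then called in bipolar-like cells (adjusted p = 0.0350). FGFR1 had 65 UMIs in bipolar-like cells, at 0.53 to 2.96 CPM per library, beside 1.98 to 12.2 CPM in free RNA. That call sets low levels near background against each other and is not read as a class difference.

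The next question was whether a bleb changed these genes in the cells that lay in it. In rod-like cells KIAA0319L stood at 56.8 CPM (right) and 60.6 (left) in the uninjected areas of NHP2, at 66.1 and 60.7 where hRPGR and at 63.5 and 66.1 where mScarlet had been injected. The mScarlet libraries lay above both uninjected ones, by 0.15 ± 0.09 on the log2 scale, which did not pass the test (adjusted p = 0.418). GPR108 had 62.1 (right) and 52.0 CPM (left) in the uninjected areas, against 45.4 and 58.7 for hRPGR and 45.2 and 40.3 for mScarlet. Its mScarlet libraries lay below both uninjected ones, and the difference of -0.41 ± 0.14 had an unadjusted p of 0.0253 and an adjusted p of 0.195.

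For rod-like cells the test called 0 of the 6 members with mScarlet against uninjected (all genes 0.934%), hRPGR against uninjected (all genes 0.0%) or mScarlet against hRPGR (all genes 0.0144%). For TM9SF2 (63.1 to 71.6 CPM over the 6 NHP2 libraries), ATP2C1 (139 to 156) and RPSA (592 to 715) the differences of both blebs from the uninjected area lay between -0.04 and 0.14 on the log2 scale, with standard errors of 0.08 to 0.13. The counts of members called were also 0 of 5 in cone-like cells (all genes 1.61, 0.026 and 0.165% for mScarlet against uninjected, hRPGR against uninjected and mScarlet against hRPGR), 0 of 5 in bipolar-like cells (0.831, 0.0154 and 0.169%) and 0 of 6 in Müller glia-like cells (0.232, 0.00772 and 0.00772%). FGFR1 had too few UMIs to be tested in cone-like and bipolar-like cells. Of the 83 member values in all comparisons of areas, eyes, animals and transgene-positive cells, 7 had an unadjusted p under 0.05 and 0 an adjusted one.

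**Figure D2:**
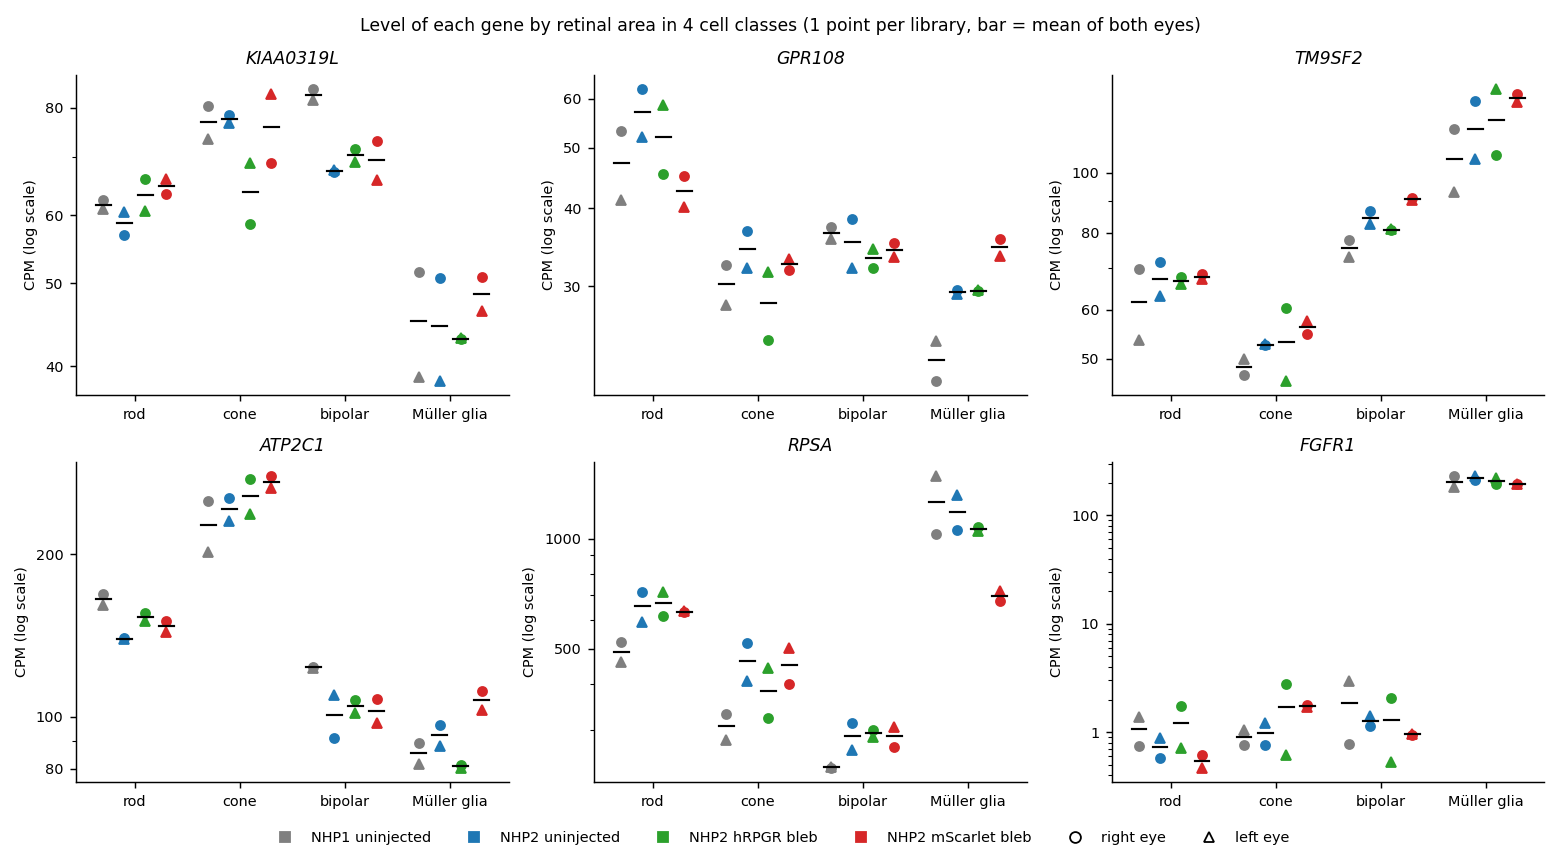
CPM (log axis) of each gene in rod-like, cone-like, bipolar-like and Müller glia-like cells by area; points are single libraries (circle right eye, triangle left eye) and the bar is the mean of both eyes. RPSA in Müller glia-like cells of the mScarlet blebs (674 and 719 CPM) lies below the other 6 libraries (1032 to 1481).

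The member value with the lowest p was RPSA in Müller glia-like cells. It stood at 1057 CPM (right) and 1313 (left) in the uninjected areas of NHP2, at 1077 and 1051 with hRPGR and at 674 and 719 with mScarlet, so the mScarlet libraries overlapped none of the others. The difference of -0.74 ± 0.13 from the uninjected areas had an edgeR adjusted p of 0.0924, and it was called with DESeq2 (adjusted p = 0.000142) and without the right uninjected library, the one with coRPGR UMIs (-0.87, adjusted p = 0.0258). Without the left uninjected library it was -0.59 (edgeR adjusted p = 0.236), and over all alternatives the adjusted p ran from 0.000142 to 0.543. Against the hRPGR blebs it was -0.60 ± 0.13 (adjusted p = 0.253 with edgeR). In the same cells 0 of 27 other small-subunit ribosomal protein genes were called and 27 of 27 had lower values in the mScarlet blebs than in the uninjected areas, with a median of -0.55 beside -0.01 over all genes. In rod-like cells, where RPSA did not pass the test, 26 of the 27 were lower with a median of -0.23. A like tally was found in rod-like cells for hRPGR against uninjected (27 of 27 lower, median -0.13) and for the left against the right eye (26 of 27 higher, median 0.09). Müller glia-like cells of the 2 mScarlet blebs shared their clusters with those of the right uninjected area, and the part of that split in the RPSA values was not tested.

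ATP2C1 had the opposite sign in Müller glia-like cells of the mScarlet blebs. Its values were 111 (right) and 103 CPM (left) there, 81.4 and 80.3 with hRPGR and 96.6 and 88.2 without injection. The difference of 0.41 ± 0.11 between the blebs was not called (edgeR adjusted p = 0.288). GPR108 in these cells was 35.8 and 33.6 CPM in the mScarlet blebs against 29.6 and 29.1 in the uninjected areas (0.27 ± 0.11, adjusted p = 0.328). Whether a bleb acted differently in another class than in rod-like cells was tested as an interaction, a test added after the data had been seen: 0 of 36 member values were called (all genes 0.0 to 0.825% over the 6 comparisons), and 5 had an unadjusted p under 0.05. The lowest was GPR108 in Müller glia-like cells of the mScarlet bleb, whose effect was 0.69 ± 0.16 above that in rod-like cells (adjusted p = 0.148).

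The eye and the animal were compared in rod-like cells alone, and no member was called. Between left and right eyes of NHP2, rod-like values of the 5 members other than FGFR1 differed by -0.07 to 0.01 on the log2 scale (0 of 6 called, all genes 0.0%). Between the rod-like cells of the libraries labelled uninjected of NHP2 and NHP1, among which the left NHP1 library carried huRPE65 UMIs and the right NHP2 library coRPGR UMIs, RPSA was 0.41 ± 0.14 (adjusted p = 0.304) and ATP2C1 -0.25 ± 0.09 (adjusted p = 0.325), and 0 of 6 were called (all genes 1.14%). Animal, vector and library cannot be told apart in the latter.

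KIAA0319, the paralogue of the receptor gene and best known as a candidate gene for reading disability, did pass the test where the receptor gene did not. In rod-like cells it was at 2.99 CPM (right) and 3.87 (left) in the uninjected areas of NHP2, 22.0 and 7.84 with hRPGR and 26.8 and 40.02 with mScarlet. It was 1.48 in the right and 11.7 in the left NHP1 library, the latter being the one with huRPE65 UMIs. The rise in the mScarlet blebs was 3.30 ± 0.50 on the log2 scale (edgeR adjusted p = 0.0471), and the hRPGR value of 2.13 ± 0.50 was not called (adjusted p = 0.994). In cone-like cells KIAA0319 was 16.0 and 15.4 CPM in the uninjected areas of NHP2 and 34.6 and 32.1 in the mScarlet blebs, a rise of 1.13 ± 0.19 (adjusted p = 0.0314). Cone-like cells had 29.8 (right) and 21.3 CPM (left) in the hRPGR blebs. They had 28.3 and 32.8 in the NHP1 libraries labelled uninjected, so a level near that of the mScarlet blebs was not particular to them. With the eye as a block the adjusted p was 0.132 (rod-like) and 0.0669 (cone-like cells), and both calls were also lost without any single uninjected or mScarlet library, although the values then stayed between 2.97 and 3.56 and between 1.07 and 1.18. KIAA0319L stood in the same rod-like libraries at 56.8 to 66.1 CPM.

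**Figure D3:**
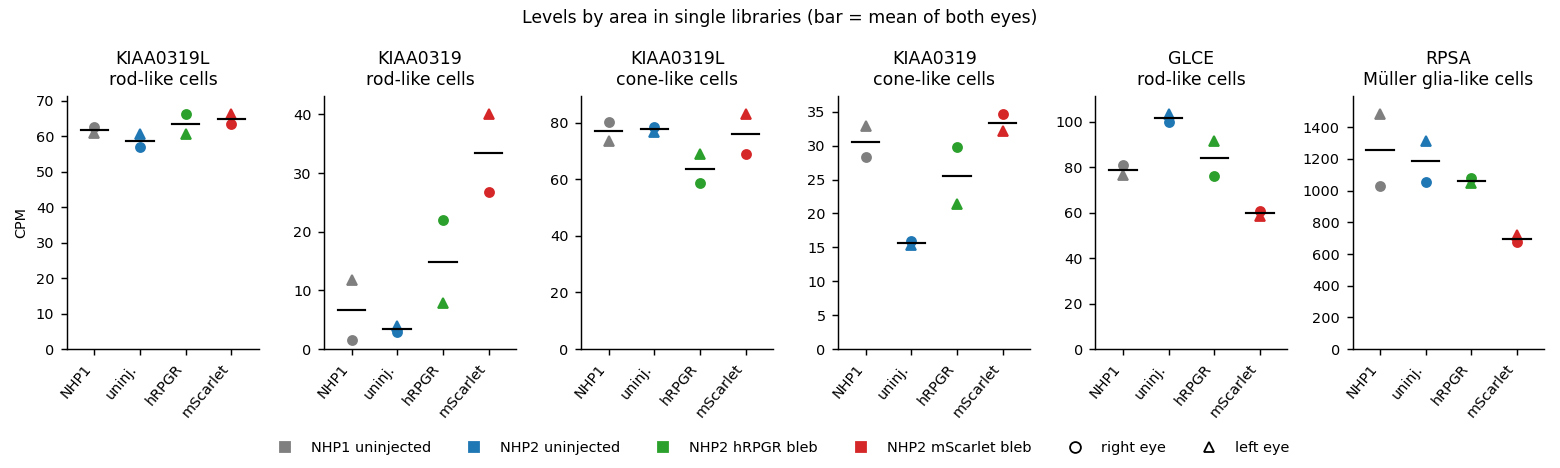
CPM (linear axes from 0) by area, with points for single libraries (circle right eye, triangle left eye) and bars for the mean of both eyes. KIAA0319 in rod-like cells rises from 2.99 and 3.87 CPM in the uninjected areas of NHP2 to 26.8 and 40.02 in the mScarlet blebs, while KIAA0319L stays between 56.8 and 66.1, GLCE is lower at 60.9 and 58.6, and RPSA in Müller glia-like cells stands at 674 and 719.

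Other genes of AAV entry rarely passed the test between areas. GLCE, the epimerase that acts on the heparan sulfate chain, fell in rod-like cells from 99.8 (right) and 103 CPM (left) in the uninjected areas to 60.9 and 58.6 in the mScarlet blebs (-0.76 ± 0.10, edgeR adjusted p = 0.0408, 0.113 with the eye as a block), and that call too was lost without any single uninjected or mScarlet library (-0.79 to -0.73). It was at 76.3 and 91.6 in the hRPGR blebs. Of the 18 heparan sulfate synthesis genes tested in these cells 1 was called (all genes 0.934%), and of 14 retromer, GARP and Golgi SNARE genes, 14 uptake and capsid fate genes, 8 proteoglycan core genes and 7 proposed coreceptors 0 were called, with medians of -0.01, -0.03, -0.02, 0.31 and -0.03 beside -0.01 over all genes. Of the 5 tested paralogues of the members 1 was called.

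Transgene UMIs were then set beside the levels of the members. Member levels are those at harvest, and levels at the time of vector entry were not measured. After thinning each cell to 3000 UMIs, mScarlet was found in 46.6% (right, exact 95% interval 44.8 to 48.4) and 41.4% (left, 39.7 to 43.1) of the rod-like cells and in 50.7% (44.6 to 56.9) and 67.9% (59.3 to 75.7) of the cone-like cells of its blebs. Bipolar-like cells, in which the promoter should be silent, had 1.14% (0.49 to 2.24) and 1.85% (1.10 to 2.91), Müller glia-like cells 5.05% and 2.68%, and myeloid-like cells 10.3% and 9.49%. Horizontal cell-like cells had 1 of 61 (right) and 0 of 112 (left, which allows up to 3.24% of cells with a UMI at this depth and sets no limit on cells that express it). Intervals cover counting error only.

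The KIAA0319L levels of the classes were set beside their mScarlet shares. Horizontal cell-like cells had 94.2 (right) and 91.2 CPM (left) of KIAA0319L in the mScarlet blebs and bipolar-like cells 73.2 and 65.9, against 63.5 and 66.1 in rod-like cells and 69.1 and 82.9 in cones. The promoter and the receptor cannot be told apart as sources of this order. ATP2C1 in these libraries was higher in cone-like (279 and 265 CPM) than in rod-like cells (151 and 144), and GPR108 lower (31.9 and 33.2 against 45.2 and 40.3).

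For coRPGR the shares were 96.4% (right) and 61.1% (left) in rod-like cells and 100% and 30.3% in cone-like cells. They were 54.1% and 26.5% in bipolar-like, 59.9% and 32.6% in Müller glia-like and 68.2% and 31.4% in myeloid-like cells. Free RNA held coRPGR at 3482 CPM (right) and 2251 (left), and mScarlet at 56.9 and 58.4. The bipolar-like share is used as a background of each library, and it was far higher for coRPGR than for mScarlet. Classes other than photoreceptors differed around it: in the right hRPGR bleb ganglion-like cells were at 78.8%, T or NK-like cells at 71.8% and horizontal cell-like cells at 49.1%, so it is no upper limit of the background. Cone-like cells of the left hRPGR bleb (23.8 to 37.4%) overlapped the bipolar-like share (23.5 to 29.6%) while ATP2C1 and KIAA0319L were at 238 and 68.9 CPM in them, against 276 and 58.6 in the right eye.

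**Figure D4:**
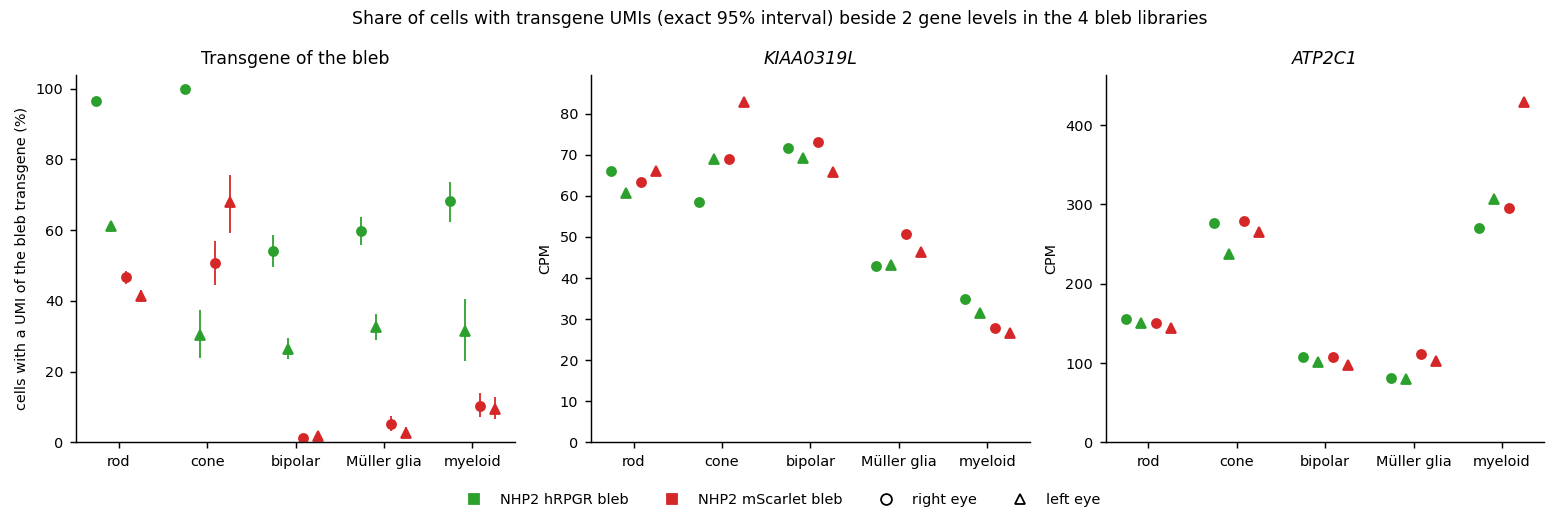
Left, share of cells (%) with a UMI of the bleb's own transgene after thinning to 3000 UMIs, by class, with exact 95% intervals; middle and right, CPM of KIAA0319L and ATP2C1 in the same bleb libraries (green hRPGR, red mScarlet, circle right eye, triangle left eye). mScarlet shares fall from 41.4 to 67.9% in rod-like and cone-like cells to 1.14 and 1.85% in bipolar-like cells, whose KIAA0319L levels (73.2 and 65.9 CPM) are within the photoreceptor range.

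Within rod-like cells the members were compared between cells with and without a UMI of the bleb transgene, at 3000 UMIs a cell. The right hRPGR bleb gave 2743 cells with and 101 without, the left one 2153 and 1371, and the right and left mScarlet blebs 1404 and 1608, and 1365 and 1931. Before thinning, with shallower cells included, 70 and 1101 cells of the right and left hRPGR blebs lacked such a UMI. In the mScarlet blebs 1293 and 1640 did. Some cells counted as without had thus lost their UMI in thinning, and the effect of this on the differences was not tested. Carrying was judged by the bleb's own transgene alone. Cells of the right mScarlet bleb with a coRPGR but no mScarlet UMI therefore count as without. KIAA0319L was at 56.7 CPM with and 63.6 without mScarlet in the right eye and at 67.6 and 70.1 in the left. In the hRPGR blebs it was at 64.0 with and 62.7 without in the right eye and 59.6 and 53.5 in the left, so it was higher in carrying cells of 2 of the 4 libraries. The pooled difference was -0.05 ± 0.08 on the log2 scale (edgeR adjusted p = 1.0).

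Of the 5 members tested in this comparison 0 were called (all genes 0.00884%). ATP2C1 was higher with the transgene in 3 of 4 libraries (0.07 ± 0.06), GPR108 in 1 (-0.09 ± 0.08), and RPSA (-0.05 ± 0.05) and TM9SF2 (0.03 ± 0.08) in 2. The widest gap, TM9SF2 in the right hRPGR bleb (65.5 with, 36.3 CPM without), rests on 11 UMIs in the cells without. FGFR1 had 0 to 18 UMIs per side and was not tested. Free RNA held coRPGR in the hRPGR blebs, and its part in the cells counted as carrying there was not tested.

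**Figure D5:**
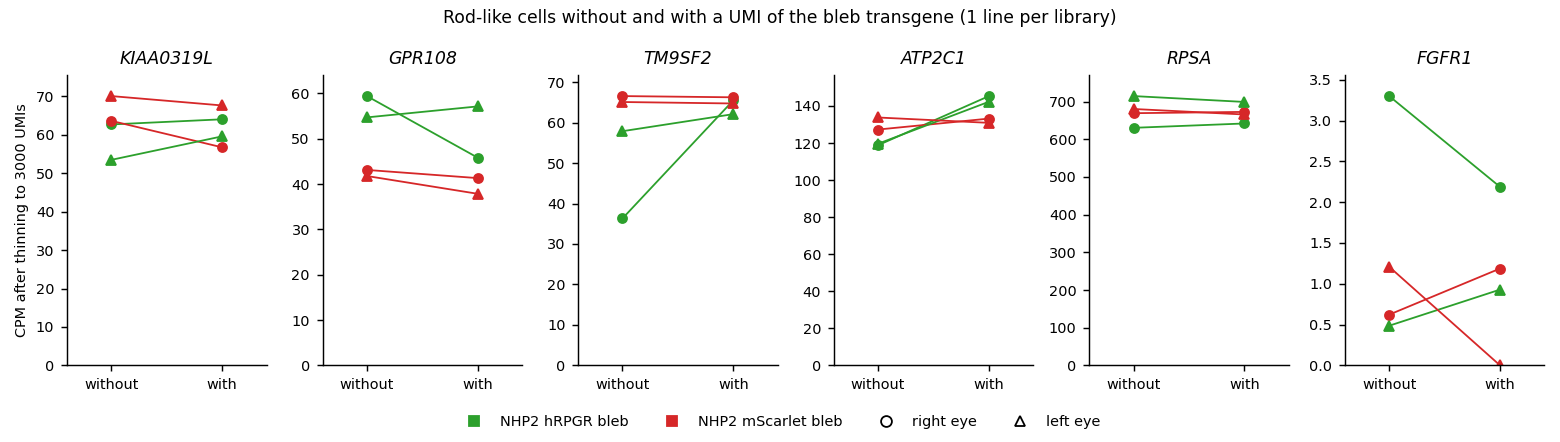
CPM (linear axes from 0, after thinning to 3000 UMIs per cell) of each gene in rod-like cells without and with a UMI of the bleb transgene; each line joins the 2 values of 1 library (green hRPGR, red mScarlet). Lines run in both directions for every gene, and the steep TM9SF2 line is the right hRPGR bleb, with 101 cells without a coRPGR UMI after thinning.

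The remaining lists were compared between classes. Of 8 proposed coreceptors 7 could be tested within rod-like cells alone, and of 8 paralogues 5, since a gene could pass the filter on low counts through a class where it is high. Levels are therefore given without counts of calls or folds. CD9, a tetraspanin, stood at 77.2 to 352 CPM in Müller glia-like and 0.069 to 0.555 in rod-like libraries, the receptor tyrosine kinase gene EGFR at 113 to 162 in Müller glia-like ones, and MET, the hepatocyte growth factor receptor, at 42.4 to 150. Among the paralogues, FGFRL1, an FGF receptor without the kinase domain, was at 28.2 to 105 CPM in Müller glia-like cells, and FGFR3 at 1.00 to 4.37 CPM. ITGA5, an integrin subunit for fibronectin, stood in myeloid-like cells at 15.02 to 48.5 CPM.

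The median of the 27 tested small ribosomal subunit genes had the sign of the RPSA value in each class. Against rod-like cells 26 were called lower in cone-like cells (all genes 56.0% called) and 27 in bipolar-like cells (66.7%), with medians of -1.002 and -1.03. In myeloid-like cells 27 were higher (all genes 70.0%, median 1.18), and in Müller glia-like cells 20 were higher and 1 lower (all genes 74.1%, median 0.70). Over the 74 class and library sums, the genes whose log2 level was most like that of RPSA among 16316 included RPL8 and RPL27 (Pearson r = 0.98 for each), which encode ribosomal proteins.

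The other members had neighbours of other kinds. KIAA0319L was most like AFDN (r = 0.83), which encodes the junction protein afadin, then PGRMC1 and SUGP2, and GPR108 was most like TMEM147, DDRGK1 and GSTP1 (0.82 each). TM9SF2 was nearest to PLK5 and to the lipid transporter gene MFSD2A (0.83 each) and then to COL8A2 (0.80), ATP2C1 to SLC4A5 and SIL1 (0.76 each) and then to SLC35G2 (0.75), and FGFR1 to ACSM5 (0.87), HHIPL1 (0.85) and SLC15A3 (0.84). The 74 sums share 8 libraries and 11 classes, so these correlations are descriptions.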

How the data were processed

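UMIs were counted in retinal cells of 8 libraries from 2 macaques. The deposited values are whole UMI counts for every gene and every barcode, cells or not. The authors ran Cell Ranger on a custom Mmul_10 reference with 3 added transgene features, without normalization. The versions were not given in the labels used here. Barcodes passed (91796) with 1500 UMIs and 300 genes or more and a mitochondrial share of 20% or less, and the 8604 highest doublet scores (0.8% per 1000 cells) were removed. Cells were clustered with scanpy 1.11.5 (3000 variable genes, 40 components, 15 neighbours, resolution 2) without the 6 genes, the list genes and the transgenes, and without SoupX or Harmony, which the study used. Of 57 clusters 35 were named from fixed markers, with naming thresholds set after looking at the clusters, so differences from the study may come from rebuilt names.

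UMIs were summed per library and class (at least 20 cells) and tested with edgeR 4.0.16 in R 4.3.3 (TMM, filterByExpr, quasi-likelihood F test) over all genes at a Benjamini-Hochberg adjusted p of 0.05. The SE is the log2 fold change divided by the root of F. Bleb and eye comparisons used the 6 NHP2 libraries, class comparisons all 8 with library as a block. DESeq2 1.42.0, other scalings, filters, depths and left-out libraries were alternatives. Shares were taken after thinning to 3000 UMIs, with exact 95% binomial intervals, and shallower cells left out. Sequences and coordinates are from RefSeq Mmul_10, and near-identical loci were found with minimap2 2.31. The named genes are the 6 members, the transgenes, up to 4 called genes of each of 7 lists per comparison and the 3 genes most like each member, of which 1 is not reported here. The members and lists were chosen with earlier results of these data known. The same number marks the same eye of 1 animal, so numbers pair the NHP2 libraries by design. Left minus right deviations of rod-like cells correlated across 13921 genes at -0.44 (uninjected and hRPGR), 0.29 (uninjected and mScarlet) and -0.24 (hRPGR and mScarlet).

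The fits were tested on simulated counts. For rod-like cells of the mScarlet blebs (13687 genes, 200 changed) 85% of the changes of 1 and 98% of those of 2 on the log2 scale were recovered, with 10 false calls. Only genes above a set mean level were changed, which leaves out levels like that of FGFR1 in rod-like cells. Counts were drawn without the eye and cluster differences of the real libraries. These values therefore do not give the recovery or the false calls in the real comparisons.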

Additional observations from a re-analysis of the deposited data

Results flagged for a closer look

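Among the member levels, 6 stood apart from the other libraries of their class by Dixon's criterion, out of 54 gene and class groups tested, where chance flags about 1 in 20. KIAA0319L in ganglion-like cells was lowest in the right mScarlet bleb (40.8 CPM, nearest library 52.2, n = 6). TM9SF2 in rod-like cells was lowest in the left NHP1 library (53.6 CPM, nearest 63.1, n = 8), and ATP2C1 in T or NK-like cells was lowest in the right uninjected area of NHP2 (30.2 CPM, nearest 66.0, n = 7). That ATP2C1 level comes from 24 cells with a median of 3538.5 UMIs, so it rests on few ATP2C1 UMIs. RPSA in horizontal cell-like cells was lowest in the left NHP1 library (202 CPM, nearest 302, n = 8). FGFR1 was highest in ganglion-like cells of the right hRPGR bleb (36.6 CPM, nearest 23.2, n = 6) and in horizontal cell-like cells of the left hRPGR bleb (32.7 CPM, nearest 16.3, n = 8). Ganglion-like cells of the right hRPGR bleb had a median of 3912.5 UMIs, against 15963.5 to 52488 in the other libraries compared.

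The transgene feature huRPE65, which none of the comparisons uses, had a UMI in 33.1% of the rod-like cells of the left NHP1 library (exact 95% bounds 31.5 and 34.7, for counting error) against 0 in the right one. In the same library 20.6% of the bipolar-like and 26.8% of the myeloid-like cells had a huRPE65 UMI, and free RNA held it at 452 CPM. The part of free RNA in the share of rod-like cells was not tested.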

How the results depend on the processing

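Over all alternatives the 83 uncalled member values of the area, eye, animal and transgene comparisons gave 987 values, of which 82 had the opposite sign and 3 were called. The called ones were RPSA in Müller glia-like cells: 1 member was called for mScarlet against uninjected with DESeq2 and without the right uninjected library of NHP2 (0 to 1 over the libraries left out), and 1 for mScarlet against hRPGR with DESeq2. With eye as a replicate block, which pairs the areas of 1 eye, 0 members were called in each of the 12 bleb comparisons, and genes called for rod-like cells with mScarlet went from 130 to 0. DESeq2 called 1000 genes there. Its other counts over 1.5 times those of edgeR were, for hRPGR against uninjected, 47 against 0 (rod-like), 44 against 3 (cone-like), 11 against 2 (bipolar-like) and 25 against 1 (Müller glia-like), for mScarlet against hRPGR 111 against 2 (rod-like), 73 against 19 (cone-like) and 189 against 1 (Müller glia-like), for mScarlet against uninjected 322 against 186 (cone-like) and 427 against 30 (Müller glia-like), 8 against 0 between eyes and 627 against 154 between animals. The cause was not tested.

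Among the class comparisons with rod-like cells, GPR108 in myeloid-like cells was 0.0695 with DESeq2, 0.0613 with relative log expression scaling and 0.0370 with cells of at least 3000 UMIs, uncalled in each, and was called lower without a filter on low counts (-0.31; -0.08 with edgeR and TMM, uncalled). Relative to the median of all genes these were -0.19, -0.03, 0.04 and -0.09, against -0.04 with edgeR and TMM. TM9SF2 in myeloid-like cells was -0.00042 without a filter on low counts and uncalled when each of 7 of the 8 libraries was left out in turn (0.16 to 0.22). KIAA0319L lost its call in cone-like and bipolar-like cells without the filter (0.14 in each) and without some single libraries, and in Müller glia-like cells with at least 3000 UMIs (-0.18, or -0.40 relative to the median of all genes, against -0.47 with all cells).

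The transgene shares moved with depth. In the right and left hRPGR blebs, coRPGR was in 98.1 and 72.8% of rod-like cells without thinning and in 93.6 and 54.96% at 2000 UMIs, and in 63.3% of the left ones with low-mitochondrial clusters counted as rod-like. In the right and left mScarlet blebs, mScarlet was in 62.7 and 57.8% without thinning and in 35.9 and 31.9% at 2000 UMIs. Classes with few cells (RPE-like and B-like) allow only wide ranges, and 2 libraries a group limit the area comparisons.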

Other observations

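Levels of some genes that build and carry heparan sulfate, the attachment glycan of several AAV serotypes, are given by class. Counts of called genes in the lists of this section stand beside the share of all genes called and are not read as a trait of a list. XYLT1, which starts the glycosaminoglycan chain, stood at 1441 to 1834 CPM in cone-like libraries against 31.1 to 48.1 in rod-like ones (5.28 ± 0.24 on the log2 scale). The glypican genes GPC5 and GPC6 stood at 268 to 378 and 215 to 331 CPM in bipolar-like cells against 1.82 to 4.45 and 1.33 to 3.65 in rod-like ones. GPC5 was also high in Müller glia-like cells, at 198 to 296 CPM. SDC3, a syndecan, was lower in Müller glia-like (3.85 to 10.8 CPM) than in rod-like libraries (58.2 to 73.6; -3.47 ± 0.20). Fewer of the heparan sulfate synthesis genes and of the proteoglycan core genes could be tested within rod-like cells alone than between classes. Counts of calls are therefore not given for these lists.

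In myeloid-like cells 8 of 14 uptake and capsid fate genes were higher and 0 lower (all genes 70.0% called). CTSB, the lysosomal protease cathepsin B, stood at 1236 to 4020 CPM against 61.5 to 71.8 in rod-like cells (5.02 ± 0.18). Of 14 retromer, GARP and Golgi SNARE genes, 6 were higher and 2 lower in cone-like cells (all genes 56.0%), among them the GARP subunit gene VPS54 (196 to 253 CPM against 89.7 to 102 in rod-like cells, 1.22 ± 0.11). In Müller glia-like cells 5 were higher and 6 lower (all genes 74.1%), with VPS54 lower (-1.12 ± 0.11) and RAB6A, a Golgi GTPase, higher (1.29 ± 0.08).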
